A study of Homo sapiens with 10 samples.

Results

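A fusion of FAM46C with an RNA-editing domain through a 47 aa linker was compared with a GFP fusion of the same domain in HUDEP-2, a human line of immortalised erythroid progenitor cells. FAM46C (gene symbol TENT5C) is a non-canonical poly(A) polymerase, and both baits were joined to ADARcd, the catalytic domain of ADAR. The GFP fusion had a 7 aa linker, and each of the 2 constructs was expressed from a TRE (doxycycline-inducible) promoter and has 1 library of poly(A) RNA. Doxycycline was given for 48 h according to the sample labels and for 24 h according to the series text. The 3 other FAM46C-ADARcd constructs (7, 27 and 74 aa linkers, same cells, promoter and doxycycline label) are shown beside them where they bear on a result. The comparison holds every site with at least 10 reads in both libraries, 4634 of the 16768 sites of the ADARcd tables, which lie in 2754 genes.

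ADAR turns adenosine in RNA into inosine, which is sequenced as G, so a protein that carries its catalytic domain leaves A-to-G edits on RNAs it comes close to. The domain on its own favours some sequence contexts, a U before the edited A above all and a G least, and edits the inverted Alu repeats that form double-stranded RNA in 3' UTRs. The cells' own ADAR enzymes edit the same repeats. FAM46C lengthens poly(A) tails, at the 3' end of its target messenger RNAs. The GFP fusion measures editing that does not depend on the FAM46C bait. Here bait, linker length and sequencing depth differ together between the libraries and cannot be told apart, and with 1 library a side there is no spread between replicates. The tests below compare 2 libraries, not the conditions.

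The 21-base windows below show sites called in the site test or carrying the genes HINT1, FUNDC2, FAM178B and NPC2, with 2 near-end sites, in SSR2 and CST3. Not every site named later has a window. Each is written 5' to 3' on the strand of the gene from GENCODE release 29 transcripts on GRCh38, in lower case with the edited A in capitals. The first 8 lines are sites with more editing in the FAM46C 47 aa library. The remaining 8 are sites with more editing in the GFP library.
HINT1, 3' UTR, chromosome 5, position 131159386: aatttccagtAtgttaagtaa
FUNDC2, 3' UTR, chromosome X, position 155054948: cccccatgcaAgacacttatg
FAM178B, 3' UTR, chromosome 2, position 96876003: cctcttccctAaggcctctgt
FAM178B, 3' UTR, chromosome 2, position 96876152: tgatgaggcaAgagcctgccc
FAM178B, 3' UTR, chromosome 2, position 96876263: ggacagggtcAgggcagccca
NPC2, 3' UTR, chromosome 14, position 74480148: gttgaagaggAggtgctctgt
SSR2, 3' UTR, chromosome 1, position 156009092: gggttagagaAgtgcttacta
CST3, 3' UTR, chromosome 20, position 23633780: cagacagagaAggcagcaggc
TOMM20, coding sequence, chromosome 1, position 235113843: cacagcagttActgcaggtct
EIF2S3, 3' UTR, chromosome X, position 24077208: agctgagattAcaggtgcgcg
PAICS, 3' UTR, chromosome 4, position 56460950: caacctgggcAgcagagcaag
AP2M1, 3' UTR, chromosome 3, position 184183772: gcacattacaAgtgggaccgg
CCNI, coding sequence, chromosome 4, position 77058527: tcttttggatAggtttttagc
ARL6IP4, coding sequence, chromosome 12, position 122981754: aggaagaagaAgaagaagagg
QARS, coding sequence, chromosome 3, position 49098628: catacaggctAcgtcattgag
SURF4, 3' UTR, chromosome 9, position 133361763: ggtggaccaaAggaggccacg

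The libraries differed in depth. Over the 4634 sites the GFP library held 398202 reads (median 69 per site) and the FAM46C 47 aa library 145553 (median 24), and the GFP library was the deeper at 99.0% of sites. The deepest site had 288 reads in the GFP library and 239 in the 47 aa library. Of 14 erythroid marker genes, 6 had an ADARcd site, 4 of them with at least 10 reads at a site in the GFP library and 2 in the 47 aa library. None of 6 myeloid or 3 fibroblast markers had a site, and of 4 lymphoid markers 1 had a site, with 2 and 0 reads. Of 4 megakaryocyte markers only ITGA2B had sites, with 145 and 62 reads. These tables list edited sites only, so they do not measure the level of a marker's RNA.

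TENT5C, the gene of the bait, was read first. Its single site with enough reads lies in the coding sequence. None of 128 GFP reads was edited there, which allows up to 2.34%. In the 47 aa library 9 of 226 reads were edited, a level of 3.98% (95% Wilson interval 2.11 to 7.39%), and the adjusted p by Fisher's exact test was 0.40. The other FAM46C libraries had 4.33% (7 aa), 4.72% (27 aa) and 12.3% (74 aa). The 4 FAM46C libraries had 226 to 233 reads at the site, against 128 with GFP. The construct carries this coding sequence, and reads of its own RNA cannot be told apart from those of the cells' gene. The 47 aa difference did not pass the test.

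Over all 4634 sites the share of reads with the edited base was 1.94% (95% Wilson interval 1.90 to 1.98%) with GFP and 2.45% (2.37 to 2.53%) with FAM46C 47 aa, a ratio of 1.26 (1.21 to 1.31). All intervals cover counting error only, because there is 1 library a side. PCR copies cannot be told from separate molecules without molecular identifiers, so the intervals can be too narrow even for that. The same sites had 0.720% with the 7 aa, 2.63% with the 27 aa and 2.93% with the 74 aa FAM46C fusion. The 47 aa level lay above GFP and between the 7 aa and the other FAM46C fusions.

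The direction of this difference turned with how a site came to be in the tables. Every listed site has at least 2 edited reads in at least 1 of the 5 ADARcd libraries, so a library that brings in its own sites is credited with their edits. In the comparison 843 sites had 2 edited reads in the 47 aa library and in no other, and 822 of them had exactly 2. They held 48.0% of all edited reads of the 47 aa library, 758 of them had no edited read in any of the 4 other libraries, and 85.8% lay in coding sequence. The GFP library alone brought in 897 sites, which held 31.4% of its edited reads, 663 of them with exactly 2 and 49.6% in coding sequence. At the 2867 sites (1936 genes) that had 2 edited reads in an ADARcd library other than the 2 compared, called here otherwise listed sites, the level was 1.97% with GFP and 1.77% with 47 aa, a ratio of 0.896 (0.849 to 0.946). At the 101 sites with 2 edited reads in all 5 libraries, 67.3% of them in 3' UTRs, it was 13.6% and 11.4%, a ratio of 0.841 (0.782 to 0.904). The libraries other than the 2 compared are the FAM46C fusions with 7, 27 and 74 aa linkers, so the otherwise listed sites were chosen by edits of the same bait. Levels of regions, distances and neighbouring bases, and list counts, are given below for all sites and for the otherwise listed ones.

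**Figure D1:**
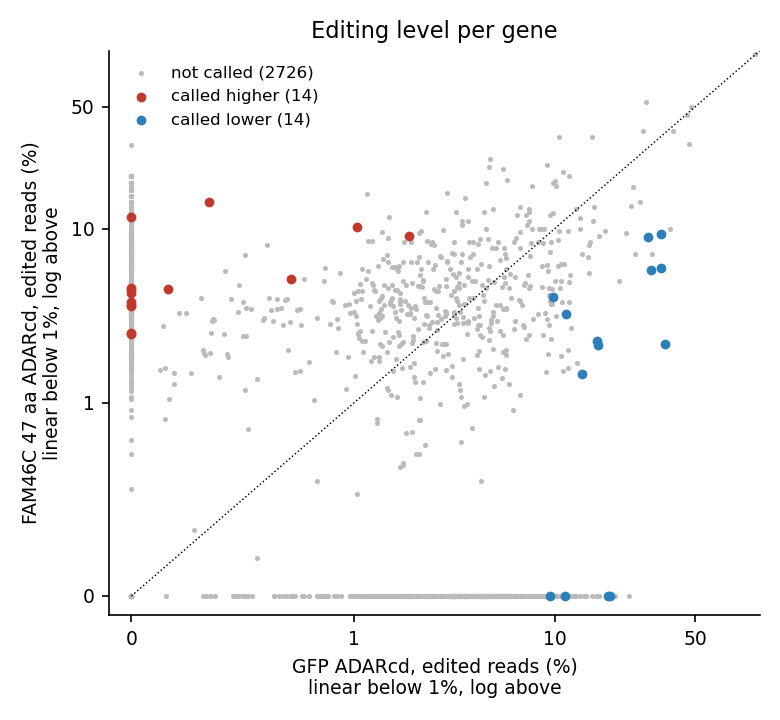
Editing level of each of the 2754 genes, as percent of reads with the edited base added over the gene's sites, in the GFP library (horizontal) and the FAM46C 47 aa library (vertical), on axes that are linear below 1% and logarithmic above. The 14 genes called higher lie at or under 1.88% with GFP, the 14 called lower lie from 9.44 to 35.3% with GFP, and many genes lie on an axis because 1 library had no edited read.

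Most sites lay in coding sequence (2997 sites) or in 3' UTRs (1163 sites), and the regions did not move alike. In coding sequence the level was 0.936% with GFP and 1.95% with 47 aa, a ratio of 2.09 (1.97 to 2.21). At the 1819 otherwise listed coding sites it was 0.805% and 0.642%, a ratio of 0.798 (0.714 to 0.892), so the coding difference changed direction. In 3' UTRs the level was 4.50% and 3.80%, a ratio of 0.846 (0.796 to 0.898), and at the 779 otherwise listed sites 4.62% and 4.13%, a ratio of 0.894 (0.836 to 0.955). Both sets of 3' UTR sites had the lower level with 47 aa.

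The smaller regions gave wider intervals. The 129 sites in 5' UTRs had 1.06% with GFP and 1.58% with 47 aa, against 0.369% and 0.147% at the 75 otherwise listed ones. The 123 sites in non-coding exons had 3.82% and 3.94%, with overlapping intervals. At 133 intronic sites the level was 3.65% and 2.39%, a ratio of 0.654 (0.511 to 0.837), and the ratio at the 76 otherwise listed ones was 0.852 (0.628 to 1.16). The 89 sites outside annotated genes had 4.30% and 1.57%, a ratio of 0.366 (0.257 to 0.519). Introns and intergenic sites therefore had their higher level in the GFP library, for introns with an interval that reached 1 at the otherwise listed sites.

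**Figure D2:**
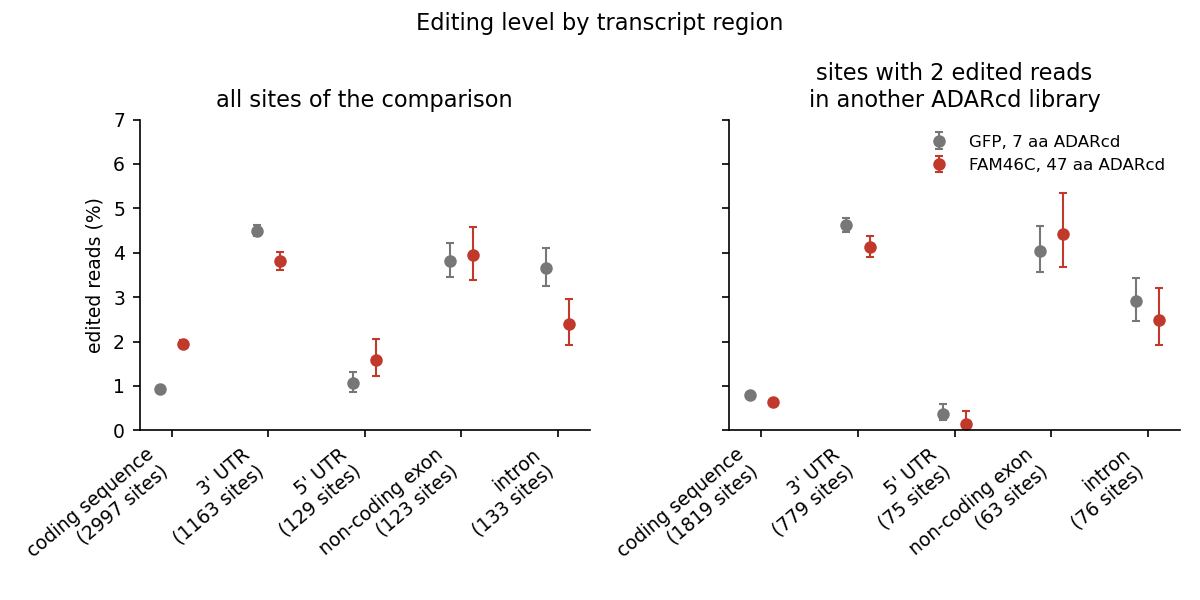
Percent of reads with the edited base by transcript region (number of sites in brackets) in the GFP and FAM46C 47 aa libraries, with 95% Wilson intervals, for all sites of the comparison (left) and the otherwise listed sites (right). In coding sequence the 47 aa point lies above GFP on the left (1.95% against 0.936%) and below it on the right (0.642% against 0.805%), while the 3' UTR points keep their order.

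Within 3' UTRs the level depended on the distance to the annotated end of the transcript. Where the poly(A) tail begins in these cells was not measured. At the 143 sites (116 genes) less than 200 nt from the end, the GFP library had 3.67% of reads edited (3.34 to 4.03%) and the 47 aa library 5.65% (5.07 to 6.29%), a ratio of 1.54 (1.33 to 1.78). Between 200 and 500 nt the libraries had 4.61% and 4.59%. Further upstream, at the 792 sites from 500 nt on, the level was 4.61% and 3.04%, a ratio of 0.659 (0.606 to 0.716). The ratio near the end was 2.34 times (1.98 to 2.76) the ratio far from it. So the 47 aa library had more editing than GFP in the last 200 nt and less further upstream.

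The sites listed through the other FAM46C fusions gave the same ratio near the end. Those fusions share the bait, so this is not a check that is neutral between FAM46C and GFP. At the 112 otherwise listed sites under 200 nt the level was 3.87% and 5.96%, a ratio of 1.54 (1.32 to 1.79), and the ratio of ratios was 2.19 (1.83 to 2.63). Leaving out each of the 12 genes with the most 47 aa edited reads near the end gave ratios from 1.46 (without TPI1) to 1.61 (without COMMD4), and without all called genes the levels were 3.76% and 5.64%. The otherwise listed coding sites, chosen by the same bait, had the same order. The ratio was 1.53 (1.14 to 2.05) at 17 sites under 200 nt and 0.561 (0.487 to 0.647) at 1716 sites from 500 nt. Over all coding sites the ratios were 1.72 (21 sites) and 2.13 (2850 sites), with a ratio of ratios of 0.810 (0.603 to 1.09), so the contrast was not seen there. Depth moved along the transcript too. At 3' UTR sites under 200 nt the GFP library held 11172 reads and the 47 aa library 5593, and from 500 nt 63378 and 21471. The part of this difference in the level was not tested.

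The other linkers showed the near-end level side by side. At the same 143 sites it was 1.82% with the 7 aa, 6.45% with the 27 aa and 7.71% with the 74 aa fusion, and at the sites from 500 nt it was 1.49%, 4.07% and 4.62%. The 7 aa fusion, the only one with the linker of the GFP control, was below GFP in both classes.

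Of the 116 genes with a 3' UTR site under 200 nt from the end, 59 had a higher level with 47 aa, 38 a lower one and 18 no edited read in either library, with a median difference of 0.208 percentage points. At the otherwise listed sites 46 of 91 such genes were above GFP and 25 below. Over all 2754 genes the counts were 923 above, 850 below and 977 without an edit, with a median of 0.0. The 12 genes with the most 47 aa edited reads near the end, chosen by that count, show the range. SSR2, a subunit of the translocon-associated complex of the endoplasmic reticulum, had 28.6% of 70 GFP reads and 53.6% of 28 reads with 47 aa, at a site 44 nt from the end. CST3, the secreted protease inhibitor cystatin C, had 0.418% of 239 and 5.71% of 140 reads (adjusted p = 0.11 by Fisher's exact test). TPI1, a glycolytic enzyme, had 9.82% of 224 and 18.3% of 197 reads (adjusted p = 0.36 by Fisher's exact test). TESC, a calcium-binding protein, had 0.478% of 209 and 4.76% of 168 reads. VKORC1, which recycles vitamin K, had 2.91% of 103 and 15.9% of 44 reads. GTF3A, a transcription factor for the 5S ribosomal RNA genes, had 1.47% of 68 and 8.86% of 79 reads, and CARS2, the mitochondrial cysteinyl-tRNA ligase, had 1 of 32 and 6 of 15 reads edited. PKM, a glycolytic enzyme, had 2.46% of 448 and 4.31% of 348 reads at its 2 near-end sites. COMMD4 (45.5% and 44.8%), TMEM147 (38.6% and 36.1%) and the mitochondrial outer membrane protein TSPO (8.74% and 8.22%) differed little. The intervals of the 2 libraries overlapped for these 3 and also for SSR2, TPI1, TESC, VKORC1, GTF3A, PKM and the near-end sites of FAM178B, which is described below.

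The base before the edited A separated the libraries as well. Among exonic sites whose transcript base was A, those after a T (U in RNA) had 4.25% with GFP and 3.35% with 47 aa, a ratio of 0.789 (0.738 to 0.843). Sites after an A had 1.71% and 2.45%, sites after a C 1.47% and 2.34%, and sites after a G 0.420% and 1.86%, a ratio of 4.44 (3.89 to 5.06). In both libraries the level was highest after T and lowest after G. At the otherwise listed sites the ratios were 0.760 (0.703 to 0.820) after T, 1.08 (0.968 to 1.20) after A, 0.966 (0.844 to 1.10) after C and 1.53 (1.14 to 2.06) after G, where the levels were 0.226% and 0.346%. The higher GFP level after T was thus present in both sets. Of the sites that only the 47 aa library brought in, 31.2% had a G before the A, against 14.0% of those that only GFP brought in.

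Repeats of the Alu family were marked by 2 short words common in them, GATTACAGG and GGAGGCTGA, searched on both strands within 150 nt of the site on the transcript. They were found at 24.2% of all exonic ADARcd sites and at 12.6% of those of the comparison. In 3' UTRs 476 sites had such a word, with 4.87% of reads edited with GFP and 2.84% with 47 aa, a ratio of 0.583 (0.519 to 0.655). The 687 sites without it had 4.30% and 4.29%, a ratio of 0.997 (0.928 to 1.07). The ratio of ratios was 0.585 (0.510 to 0.670), and 0.563 (0.482 to 0.656) at the otherwise listed sites. The 47 aa level was thus lower than GFP at sites with a word, while at those without the interval of the ratio included 1. A matching word is a description of the sequence.

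Single sites passed the test in few cases. Fisher's exact test, adjusted by Benjamini-Hochberg over the 4634 sites, called 1 site higher with 47 aa (0.0216% of sites) and 10 lower (0.216%), at an adjusted p under 0.05. At an unadjusted p under 0.05 the counts were 293 and 49. A difference of 10 percentage points or more was seen upward at 253 sites (5.46%) and downward at 124 (2.68%). At the otherwise listed sites the test called 1 higher (0.0349%) and 9 lower (0.314%).

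The gene test added edited and unedited reads over each gene's sites. It called 14 of 2754 genes higher (0.508%) and 14 lower (0.508%) with 47 aa than with GFP. The counts at an unadjusted p under 0.05 were 273 and 47, and the size rule of 10 percentage points marked 143 genes upward (5.19%) and 50 downward (1.82%). At the otherwise listed sites 3 of 1936 genes were higher (0.155%), namely HINT1, FAM178B and FUNDC2, and 11 lower (0.568%). All 11 were among the 14 lower genes above. When the null was the odds ratio over every read of the comparison, 9 genes were higher and 21 lower.

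HINT1, a purine phosphoramidase of the histidine triad family, gave the only site called higher. The site is 359 nt before the transcript end, in exon 3 of 3 within the 3' UTR, with a T before the edited A (sequence above). The level was 0.347% of 288 reads (0.0613 to 1.94%) with GFP and 14.2% of 218 reads (10.2 to 19.5%) with 47 aa, with an adjusted p of 3.8e-08 by Fisher's exact test over sites. It was 3.85% with 7 aa and 20.8% with 27 aa, and 24 of 218 reads were edited with 74 aa. All 4 FAM46C libraries lay above GFP at this site.

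FAM178B had 4 sites in its 3' UTR, none brought in by the 47 aa library alone. Its level was 2 of 195 reads (0.282 to 3.66%) with GFP and 10.2% of 246 reads (6.98 to 14.6%) with 47 aa (adjusted p = 0.0054, Fisher's exact test). The 7, 27 and 74 aa libraries had 2.42%, 12.9% and 13.1%. The site at 96876152 had 2 of 61 edited reads with GFP and 14 of 73 with 47 aa, the site at 96876003 had 0 of 40 and 7 of 51, and the site at 96876263 had 0 of 73 and 4 of 85. All 3 printed sites had the higher count with 47 aa, and the fourth, 79 nt from the end, had no edited read in either library.

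FUNDC2, a mitochondrial outer membrane protein of the FUN14 family, had 1 site, 5355 nt before the annotated end of its long 3' UTR. None of 123 GFP reads was edited, which allows up to 2.44%, and 11.7% of 60 reads (5.77 to 22.2%) were edited with 47 aa (adjusted p = 0.035, Fisher's exact test). Its level was 1.37% with 7 aa, 8.96% with 27 aa and 11.1% with 74 aa. NPC2, which carries cholesterol out of lysosomes, had 2 sites in its 3' UTR, with 1.88% of 373 reads (0.912 to 3.82%) and 9.09% of 198 reads (5.83 to 13.9%; adjusted p = 0.017, Fisher's exact test). Its other linkers had 1.47%, 7.20% and 8.44%. The printed NPC2 site had 7 of 223 edited reads with GFP and 16 of 140 with 47 aa, and this site also lies in another gene. The other NPC2 site, in 1 gene only, had 0 of 150 and 2 of 58. At the otherwise listed site alone NPC2 was not called (adjusted p = 0.28, Fisher's exact test), with a difference of 8.29 percentage points. With the GFP library thinned to the depth of 47 aa FUNDC2 was not called (adjusted p = 0.99, Fisher's exact test), with a difference of 11.67 percentage points. Thinning could not change the FUNDC2 difference, because the GFP library had no edited read there to lose. The NPC2 value rests on 1 of its 2 sites. In both genes the 27 and 74 aa levels lay near the 47 aa level and the 7 aa level near GFP.

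Few edited reads, mainly at coding sites except in CHP1 and NOP14, carried the other 10 genes called higher. Among them were CHP1, a calcium-binding partner of sodium-proton exchangers, EGFL7, a secreted vascular protein, EPS15, an endocytic adaptor, TBC1D4, a Rab GTPase-activating protein, the S6 kinase RPS6KB2, the dynein regulator PAFAH1B1, and NOP14, UTP6 and the helicase DDX27, which act in ribosome assembly. Their levels with GFP lay from 0 to 0.716% and with 47 aa from 2.49 to 5.12%. In the 3' UTR lay 4 of the 6 sites of CHP1 and 2 of the 4 of NOP14. All 4 sites of EPS15 and all 3 each of RPS6KB2, UTP6 and DDX27 were brought in by the 47 aa library alone, as were 5 of 6 of CHP1, 3 of 4 of TBC1D4, 3 of 5 of PAFAH1B1, 2 of 4 of EGFL7 and 2 of 4 of NOP14. None of the 10 was called at the otherwise listed sites, where 4 of them had no site left.

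Values show how few reads were involved. CHP1 had 0 of 688 edited reads with GFP (up to 0.436%) and 10 of 227 with 47 aa, 4.41% (2.41 to 7.92%; adjusted p = 0.00026, Fisher's exact test), with no edited read in the 7 and 27 aa libraries and 0.830% with 74 aa. EGFL7 had 0 of 734 (up to 0.409%) and 9 of 210, 4.29% (adjusted p = 0.00036, Fisher's exact test), and 0.365%, 1.91% and 0.565% with the other linkers. EPS15 had 0 of 589 (up to 0.509%) and 8 of 223, and none in the 7, 27 and 74 aa libraries. UTP6 and DDX27 also had no edited read in those 3 libraries. A site brought in by the 47 aa library alone has fewer than 2 edited reads in every other library by definition. Low 27 and 74 aa levels at such sites were therefore set by how the sites were listed. They cannot serve as a contrast with HINT1, FUNDC2, FAM178B and NPC2. NOP14 had 0.716% with GFP, 5.12% with 47 aa, 2.60% with 27 aa and 2.22% with 74 aa. The transcript base was T and not A at 2 of 3 sites of RPS6KB2, 2 of 4 of NOP14 and 1 of 3 of UTP6, as at 241 of 4412 exonic sites of the comparison (5.46%). Strand is not given by the labels, and genes overlapping on opposite strands cannot be told apart.

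The 14 genes called lower had clear editing with GFP. TOMM20, a receptor of the mitochondrial protein import machinery, had 35.3% of 215 reads (29.3 to 41.9%) with GFP and 2.17% of 92 (0.598 to 7.58%) with 47 aa at a single coding site (adjusted p = 9.9e-09, Fisher's exact test). Its levels were 3.32%, 7.14% and 15.9% with 7, 27 and 74 aa. MCM4, a subunit of the replicative helicase, had 30.1% of 462 and 5.75% of 226 reads over 2 sites in its 3' UTR (adjusted p = 2.7e-11, Fisher's exact test). EIF2S3, a subunit of translation initiation factor eIF2, had 34.0% of 268 and 5.93% of 118 reads (adjusted p = 2.7e-07, Fisher's exact test). The printed EIF2S3 site holds a word of the Alu family at the edited base, with 39.4% of 231 and 6.86% of 102 reads. In these 3 genes the intervals of the 2 libraries did not overlap.

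PAICS, an enzyme of purine synthesis, had 16.4% of 428 and 2.15% of 186 reads (adjusted p = 2.4e-05, Fisher's exact test). AP2M1, a subunit of the clathrin adaptor AP2, had 33.9% of 218 and 9.30% of 129 reads (adjusted p = 3.6e-05, Fisher's exact test). APOBEC3C, a cytidine deaminase, had 9.76% of 1445 and 4.03% of 596 reads over 10 sites in its 3' UTR, all of which overlap another gene. At all 10 sites the share was higher with GFP.

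CCNI (cyclin I) had 29.2% of 219 and 8.91% of 101 reads at a coding site. ARL6IP4 (18.3% of 202 reads), QARS (glutaminyl-tRNA ligase, 11.3% of 222), SURF4 (a cargo receptor of the endoplasmic reticulum, 9.44% of 339) and CHD3 (a chromatin remodeller, 18.8% of 144) had no edited read of 82, 111, 125 and 51 with 47 aa, which allows up to 3.66%, 2.70%, 2.40% and 5.88%. QARS had none with 7, 27 and 74 aa either, and its site was brought in by the GFP library alone. EEF1A1P5 and EEF1A1P6, pseudogenes nearly identical to the elongation factor gene EEF1A1, had 13.7% and 16.3% with GFP and 1.46% and 2.25% with 47 aa, and are uncertain because reads could come from either copy. At the otherwise listed sites CHD3 and EEF1A1P5 were not called (adjusted p = 1.0 and 0.66, Fisher's exact test), with fewer sites and differences of -21.21 and -18.69 percentage points. At all 14 genes the GFP level was above the level of each of the 4 FAM46C libraries. The comparisons of those linkers with GFP share its library.

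The linkers were compared directly, without the GFP library. Against 27 aa (4440 sites, 2655 genes) the level was 2.44% with 47 aa and 2.62% with 27 aa, a ratio of 0.928 (0.889 to 0.969). By Fisher's exact test 0 genes were higher (0.0%) and 0 lower (0.0%), with 48 and 34 at an unadjusted p under 0.05. In 3' UTRs the ratio was 0.780 (0.728 to 0.834), and under 200 nt from the end 0.876 (0.761 to 1.01). Sites with 2 edited reads outside the 2 libraries compared, here with GFP among the others, had a ratio of 0.825 (0.777 to 0.876). In coding sequence the ratio was 1.06 (0.996 to 1.13) over all sites and 0.842 (0.743 to 0.953) at such sites. At such sites it was 0.791 in 3' UTRs and 0.893 under 200 nt. Against 74 aa (4145 sites, 2525 genes) the level was 2.41% with 47 aa and 2.95% with 74 aa, a ratio of 0.817 (0.781 to 0.854). Here 0 genes were higher (0.0%) and 1 lower (0.0396%), with 32 and 61 at an unadjusted p under 0.05. The gene was PKM, a glycolytic enzyme, with 8.24% of 534 reads (6.20 to 10.9%) with 47 aa and 17.0% of 517 (14.0 to 20.5%) with 74 aa (adjusted p = 0.042, Fisher's exact test). PKM had 7.60% of 645 reads with GFP. Under 200 nt from the end the ratio to 74 aa was 0.724 (0.629 to 0.834), so the 47 aa level near the end was lower than that of 74 aa. Sites with 2 edited reads outside these 2 libraries had a ratio to 74 aa of 0.689 (0.648 to 0.732), and 0.719 under 200 nt. In coding sequence the ratio to 74 aa was 0.901 (0.846 to 0.960) over all sites and 0.605 (0.535 to 0.683) at such sites.

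A separate set of libraries carried the same baits on APOBEC1, which turns C into U. The nearest construct, FAM46C with a 52 aa linker, was compared with GFP-APOBEC1 by the same gene test. Here too bait and linker differ together (7 aa with GFP), with 1 library a side. The levels are given for all sites only. Of the 14 genes higher here 13 were measured, 7 above GFP, 4 below and 2 with no edit, and 2 were called higher. FUNDC2 had 0.385% of 519 reads with GFP and 6.22% of 949 with FAM46C (adjusted p = 6.6e-07, Fisher's exact test), and HINT1 had 2.67% of 225 and 13.9% of 245 (adjusted p = 0.0012, Fisher's exact test). FAM178B had 0 of 301 and 2.86% of 419 reads (adjusted p = 0.066, Fisher's exact test). NPC2 had 1.71% of 410 and 3.52% of 625 reads (adjusted p = 0.78, Fisher's exact test). CHP1 (3.76% and 3.25%), EPS15 (3.13% and 1.57%) and TBC1D4 (2.32% and 1.35%) were not above GFP. Of the 14 lower genes 12 were measured, 5 above, 6 below and 1 with no edit. TOMM20 was called lower, with 5.79% of 1451 and 2.88% of 1077 reads (adjusted p = 0.025, Fisher's exact test), and MCM4 (0.567% and 0.880%) was not below GFP. Of the 1774 genes measured in both, 15 were called higher and 18 lower with APOBEC1, 530 were above GFP and 806 below.

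Gene lists of erythroid and secretory biology were described by their counts. Over all 2754 genes 923 were above GFP, 850 below and the median difference was 0.0 percentage points, and at the otherwise listed sites 218 of 1936 were above and 384 below. Over 24 lists 152 of 562 genes were measured, 2 called higher and 6 lower, beside 0.508% of all genes called in each direction. None of 11 globin genes was measured. Of 4 erythroid transcription factors 2 were above GFP and 0 below, and at the otherwise listed sites 0 and 0 of 3. Of 12 red cell membrane and skeleton genes 7 were above and 2 below, against 1 and 2 of 8. Of 3 heme synthesis genes 0 were above and 3 below in both sets. Of 4 iron genes 1 was above and 2 below, against 0 and 1 of 3. None was called. ALAS2, the first enzyme of heme synthesis in red cells, had 7.47% of 830 and 6.94% of 216 reads. FTL, the ferritin light chain, had 13.7% of 241 and 7.11% of 239 reads (adjusted p = 0.40, Fisher's exact test). EPB42, a protein of the red cell skeleton, had 0.246% of 407 and 3.28% of 122 reads. No erythroid gene of these lists passed the test.

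Lists of the secretory path and organelles held the called genes NPC2, SURF4, TOMM20 and FUNDC2. Lysosomal genes had 7 of 12 above and 4 below GFP, with NPC2 called higher, and 4 and 5 of 11 at the otherwise listed sites. Genes of the translocon and glycosylation had 4 of 12 above and 5 below, against 2 and 6 of 11. Chaperones of the endoplasmic reticulum had 3 of 5 above and 1 below, against 1 and 0 of 4. Vesicle trafficking had 5 of 11 above and 5 below with SURF4 called lower, against 1 and 3 of 8. V-ATPase had 0 of 3 above and 1 below, against 0 and 0 of 3, and surface proteins of blood cells 4 of 7 and 3, against 2 and 3 of 5. Mitochondrial import and outer membrane genes had 3 of 7 above and 2 below, with FUNDC2 called higher and TOMM20 lower, against 1 and 2 of 6. Respiratory chain genes had 1 of 5 above and 4 below, against 1 and 2 of 3, and mitochondrial ribosome genes 2 of 5 and 2, against 1 and 2 of 4. SSR3, a translocon-associated subunit, had 9.38% of 405 and 4.55% of 132 reads, and NDUFS1, a subunit of complex I, had 17.8% of 129 and 9.62% of 52. P4HB, a disulfide isomerase, had 2.16% of 231 and 4.64% of 194 reads. None of these 3 passed the test.

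All 7 measured cytoplasmic ribosomal protein genes lay below GFP, with a median difference of -6.50 percentage points, and 0 were called. RPS3A had 14.7% of 224 and 8.02% of 212 reads, RPSA 9.30% of 129 and 2.80% of 107, and RPS19 4.22% of 498 and 2.45% of 163 (adjusted p from 0.40 to 1.0, Fisher's exact test). At the otherwise listed sites 5 were measured, all below GFP. Reads from their processed pseudogenes cannot be told apart from those of the genes.

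Lists of translation, replication and the cell cycle held called genes, all lower, while most of their measured members were above GFP over all sites. Translation factors and tRNA ligases had 5 of 8 above and 2 below (EIF2S3 and QARS, both called lower), and 1 and 1 of 5 at the otherwise listed sites. Replication had 6 of 11 above and 2 below with MCM4 called lower, against 1 and 2 of 7, and cyclins and cell cycle genes 5 of 8 and 2 with CCNI called lower, against 1 and 2 of 6. The lists with no called gene were splicing factors (3 of 6 above and 1 below, against 1 and 1 of 4), proteasome and ubiquitin genes (3 of 5 and 2, against 1 and 1 of 2), poly(A) tail machinery (1 of 3 and 2, against 1 and 1 of 2) and glycolysis and central metabolism (4 of 5 and 1, against 3 and 1 of 4). PGK1, a glycolytic kinase, had 23.9% of 234 and 13.6% of 214 reads (adjusted p = 0.19, Fisher's exact test). CNOT1, the scaffold of the CCR4-NOT deadenylase, had 1.94% of 413 and 0.847% of 118 reads. Known targets of the cells' own ADAR had 2 of 10 above and 7 below with a median of -0.706 percentage points, and at the otherwise listed sites 4 of 8 above and 2 below with a median of 0.0895. NUP43, with 13 sites, had 3.49% of 1089 and 3.11% of 322 reads. Genes of other blood lineages had 1 measured member, ITGA2B, with 8.28% of 145 and 3.23% of 62 reads.

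The authors' deposited table for this fusion lists 366 sites, with p-values from 2.48e-11 to 0.0499 and no adjustment given. Of the sites in the authors' deposited table, 294 are in the comparison, and 255 of these (86.7%) were brought in by the 47 aa library alone. Of the 294 sites, 238 had exactly 2 edited 47 aa reads and 243 lay in coding sequence. The authors' deposited table names 10 of the 14 genes called higher here. It lists 375 gene identifiers, and how many of the 2754 genes tested are among them was not counted. The table compares the same libraries, so the overlap is not separate support.

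The 254 sites with exactly 10 reads in the shallower library, just inside the limit, had 4.05% with GFP and 3.49% with 47 aa. The 232 sites with 9 reads, just outside it, had 3.95% and 3.64%.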

How the data were processed

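Trizol RNA, poly(A) selected, was sequenced, per the labels. HISAT2 2.2.1, Picard 2.27.1, SAMtools 1.18 and the GRCh38 build are listed in the submitters' processing notes. The rule for choosing sites: not given in the sources used here. The authors deposited, per library and site, counts of reads with the reference and the edited base, not normalised. They also deposited a p-value per site and fusion. 48 columns of read numbers in those tables match no single label and were not used.

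Libraries were joined by site, with at least 10 reads in both. Sites were placed in GENCODE 29 basic transcripts, 1 gene per site, preferring a transcript with A at the site. Two-sided Fisher's exact tests (scipy 1.17.1) were adjusted over all sites or all genes by Benjamini-Hochberg and called at 0.05. The test was checked on simulated reads that left out how sites came to be listed, so the check does not cover that effect. Intervals are 95% Wilson intervals, and a share of 0 carries the limit of 3 counts. Genes named are TENT5C, all called genes and sites except 2 genes not reported here, up to 3 members with the most reads per list, and near-end genes chosen after their values were seen. Members and lists were chosen with earlier results of these data known.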

Additional observations from a re-analysis of the deposited data

How the results depend on the processing

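No paired analysis was possible because each construct has 1 library and no replicate numbers; no library could be left out either. Restricting sites to those listed by other ADARcd libraries turned the ratio of 47 aa to GFP to 0.8963 over all sites, 0.7977 in coding sequence and 0.3995 in 5' UTRs, and gave 0.8521 in introns. An alternative chosen after seeing the data, sites with 2 edited reads in at least 2 libraries, gave 0.7922, 0.6472, 0.2393 and 0.9525 for the same 4. With at least 1 read in both libraries the ratios were 1.062 over all sites, 1.887 in coding sequence, 0.7933 in 3' UTRs and 0.9222 in introns. With at least 20 reads they were 1.409, 2.288 and 0.9161, and 0.7223 in 3' UTRs from 500 nt. Split by 47 aa reads per site, the ratio over all sites did not rise steadily with depth. It was 0.937 (0.860 to 1.02) at 10 to under 20 reads and 1.63 (1.53 to 1.74) at 20 to under 50. It was 1.41 (1.30 to 1.53) at 50 to under 100, and 0.640 (0.581 to 0.706) at the 89 sites with 100 or more. The otherwise listed sites had 0.949, 0.800, 0.777 and 0.657 in the same order. Thinning the deeper library site by site gave 1.139 over all sites and 1.736 in coding sequence. The 3' UTR ratio under 200 nt ranged from 1.399 to 1.615 over its alternatives.

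Genes called higher numbered 3 at sites listed by other libraries, 2 after thinning, 6 with 2 edited reads in 2 libraries, 9 against the odds ratio of all reads, 3 without each gene's deepest site and 9 with sites in 1 gene only. Genes called lower numbered 9 after thinning, 4 without the deepest site and 21 against the odds ratio of all reads. After thinning 5 sites were lower, and with 2 edited reads in 2 libraries 2 sites were higher. PKM against 74 aa was not called (0 genes lower) with 1 read, after thinning, against the odds ratio of all reads or without the deepest site. HINT1 and FAM178B among the higher genes, and MCM4, TOMM20, AP2M1, APOBEC3C and ARL6IP4 among the lower, were called in every setting that gave them a value. FUNDC2 was called in 6 of 10 and NPC2 in 4 of 11, and no called gene changed direction, though the difference was 0.0 for EIF2S3 without its deepest site and for some genes, CHP1 and PAFAH1B1 among them, at sites listed by other libraries. Intron bases are unknown, so the setting that requires an A gives no intron value. At a median of 24 reads per site, a low level in the 47 aa library is often 0 counts.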
